A study of Mus musculus with 22 samples.

Results

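The 22 mammary samples were ranked by a score made of 4 genes, and the 6 mice at the top were compared with the 6 at the bottom, 12 of 22 in all. The score was the mean of log2(CPM + 1) over Epcam (an epithelial adhesion molecule), Cdh1 (E-cadherin, the adhesion protein of epithelial junctions), and Krt5 and Krt14 (the keratin pair of basal epithelial cells). CPM is the number of reads of a gene scaled to the size of its library, and log2 values below are on that log2(CPM + 1) scale. The mice at the top are called high-score mice and those at the bottom low-score mice. The name epithelium-rich, which the 4 genes would give, is not used. The luminal, hormone-sensing, milk and contractile lists described below were not higher as a whole, although other epithelial lists were. The mice were chosen by the measured values of the 4 genes of the score, so those values are a description and carry no test.

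All mice were female C57BL/6J, 7 to 8 weeks of age, each with a running wheel or with only the hub of a wheel (controls) for 2 weeks. Every mouse received liposomes into a vein 24 hours before engraftment and again at engraftment, holding either PBS or clodronate, a drug that kills phagocytes that take the liposomes up. Every mouse then received 100000 EO771 mammary cancer cells, a line from the same strain, in a mammary fat pad of the left side, and the tissue was taken 24 hours later. PBS liposomes went to 6 mice of each activity and clodronate liposomes to 5 of each. The RNA came from the whole piece of tissue, host and engrafted cells together, so fewer cells of a type and less RNA per cell cannot be told apart.

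Mammary epithelium is a bilayer. Luminal cells line the ducts, carry the keratins Krt8, Krt18 and Krt19, sense estrogen and progesterone, and make milk, while basal cells carry Krt5 and Krt14 and contract. Krt5 and Krt14 are also the keratins of the basal layer of stratified epithelia such as the epidermis, whose cells exchange them for Krt1 and Krt10 as they mature and then make loricrin, filaggrin and the late cornified envelope proteins of the skin barrier. Keratins work in pairs of a type I and a type II chain, whose genes lie in separate clusters on mouse chromosomes 11 (type I) and 15 (type II), except that the type I gene Krt18 lies beside Krt8 on chromosome 15.

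The high-score mice had scores of 7.81 to 8.84 (median 8.10) and the low-score mice 5.10 to 5.95 (median 5.52). The last mouse inside the high group scored 7.81 and the next one outside it 7.61, while the last mouse inside the low group scored 5.95 and the next one outside it 6.00, so neither edge lies at a clear gap. Krt14 stood at 281, 619 and 1946 CPM (lowest, median, highest) in the high-score mice and at 26.4, 31.5 and 44.9 CPM in the low-score mice. Krt5 stood at 428, 687 and 1468 CPM against 22.1, 30.0 and 36.4 CPM. These keratins spread over 73.6-fold and 66.5-fold among the 22 mice, and their log2 values had Pearson correlations of 0.98 (Krt14) and 0.99 (Krt5) with the score they are part of. Cdh1 ran from 161 to 274 CPM against 61 to 117 CPM, without overlap. Epcam ran from 51.1 to 111 CPM in the high-score mice and from 34.4 to 71.4 CPM in the low-score mice, so its ranges overlapped. Across the 22 mice the log2 values of Krt5 and Krt14 had a Pearson correlation of 0.99, whereas Epcam and Krt14 had one of 0.03, a description over libraries that share the ranking.

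**Figure D1:**
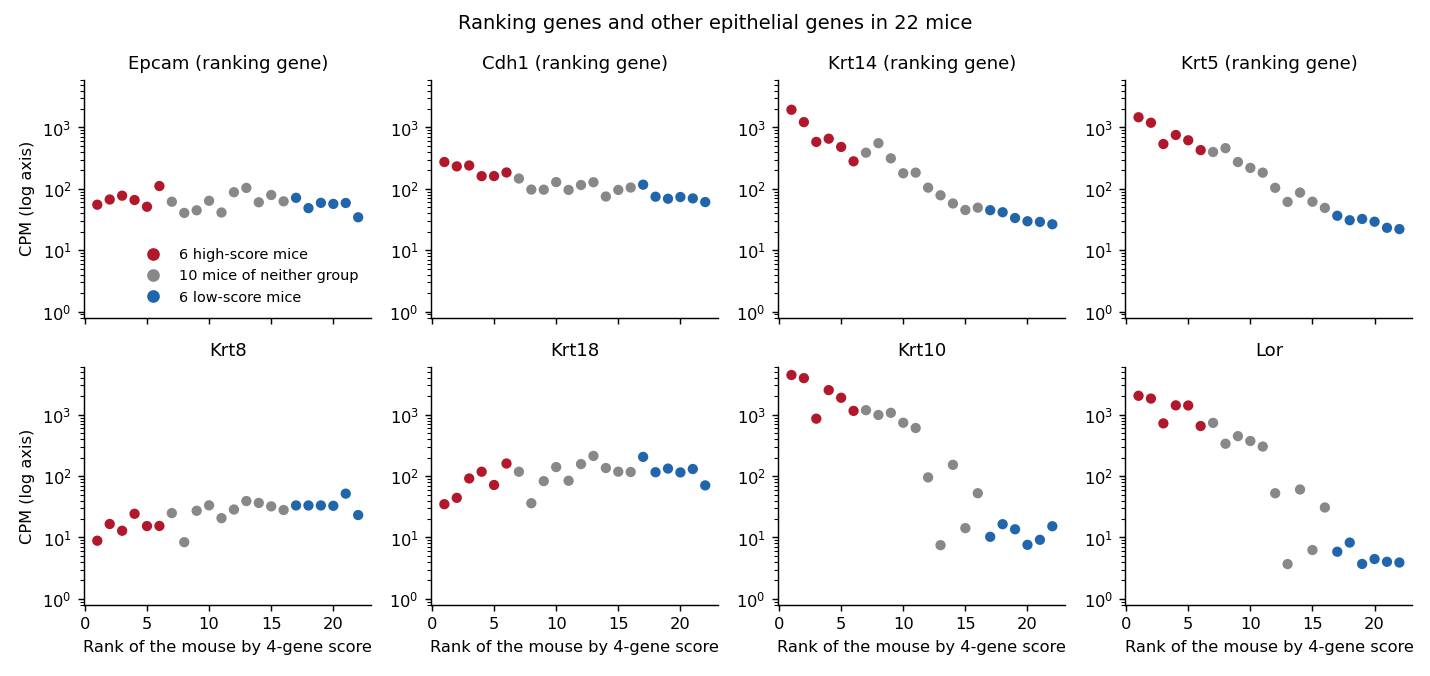
CPM on a log axis against the rank of each of the 22 mice by the 4-gene score, for the 4 ranking genes (Epcam, Cdh1, Krt14, Krt5) and for Krt8, Krt18, Krt10 and Lor. Epcam runs almost level, Krt8 is lower at the top ranks, and Krt10 and Lor drop from 656 CPM or more in every high-score mouse to 16.5 CPM or less in every low-score mouse.

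The groups fell over the study's labels with little imbalance. Among the high-score mice 3 were controls and 3 wheel-running, and 2 had PBS and 4 clodronate liposomes. Among the low-score mice 2 were controls and 4 wheel-running, with 3 mice on each liposome. Neither split was found to differ between the groups by an exact two-sided permutation test (p = 1 for activity and p = 1 for liposome). With 6 mice in each group this test could find only a strong imbalance, so it does not show balance. The score was 6.81 ± 0.96 (SD, n = 6) in control and 6.38 ± 1.20 (SD, n = 6) in wheel-running mice with PBS, and 7.43 ± 1.25 (SD, n = 5) and 6.70 ± 1.13 (SD, n = 5) with clodronate. Every label group held at least 1 high-score and 1 low-score mouse.

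**Figure D2:**
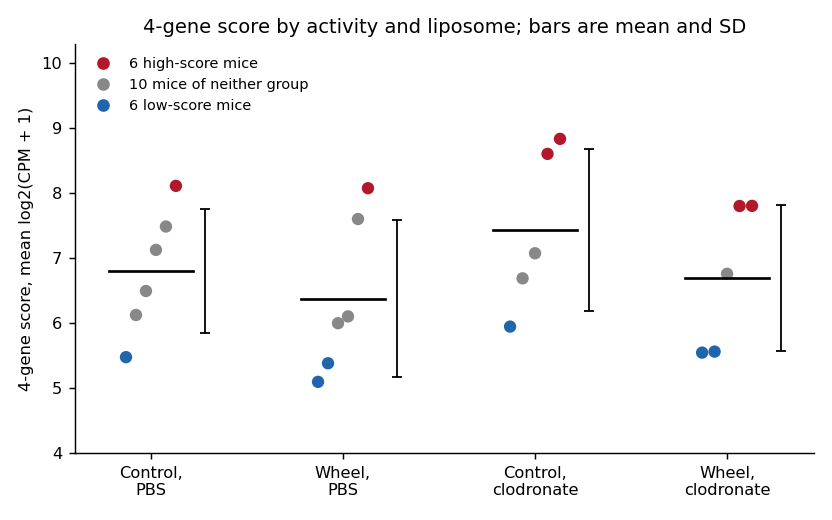
The 4-gene score, mean log2(CPM + 1), of each mouse in the 4 label groups, with black bars for the group mean and error bars for the SD. All 4 groups reach from low-score to high-score mice, from 5.10 to 8.84 over the 22 mice.

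Total reads were 13644835 to 17092041 in the high-score and 13314092 to 20484578 in the low-score libraries. Total reads, the share of reads in genes, the number of genes above the floor, the share of reads in the 10 largest genes and the median level were compared by exact two-sided permutation over 924 splits, with p from 0.379 to 0.900, and adjusted p = 0.900 for each of the 5. Deposited values below 1 CPM had been raised to 1, the floor, which stood for 13 to 20 reads. A gene at the floor may have had reads up to that number, which the deposited values hide, and counting error below the floor cannot be seen.

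Across 15134 genes that exceeded the floor in 5 or more mice, the ranking genes left out, limma called 989 genes different between the groups at an adjusted p under 0.05 (Benjamini-Hochberg), 6.53% of those tested. There were 772 genes higher in the high-score mice (5.10%) and 217 lower (1.43%). The ranges of the groups did not overlap for 546 genes higher (3.61%) and 75 lower (0.496%). The other genes come from the same libraries as the ranking genes, so these calls describe what went along with the ranking. The median difference over all genes tested was -0.07, and it moved by less than 0.1 under both other scalings tried.

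The largest differences belonged to genes known from the mature epidermis. Krt10, the type I keratin of the upper epidermal layers (chr11:99385254-99389364 in GRCm38), stood at 864, 2208 and 4443 CPM (lowest, median, highest) in the high-score mice. The low-score mice had 7.6, 11.9 and 16.5 CPM, so the groups lay far apart, with a log2 difference of 7.37 (SE 0.35, adjusted p = 1.1e-09). Its type II partner Krt1 had 127, 251 and 1023 CPM against 1.6, 2.2 and 2.6 CPM, a log2 difference of 6.64 (SE 0.41, adjusted p = 2.2e-08). Krt77, a type II keratin of the same cluster as Krt1, had the largest difference of all genes tested, with 943, 2048 and 2724 CPM against 4.6, 6.2 and 10.8 CPM (log2 difference 7.85, SE 0.28, adjusted p = 8.6e-11). Lor, which encodes loricrin, the main protein of the cornified envelope, had 656, 1420 and 2038 CPM against 3.7, 4.2 and 8.3 CPM (log2 difference 7.73, SE 0.28).

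The 12 genes with the largest differences among those called and not overlapping were Krt77, Lor, Krtdap, Dmkn, Krt10, Lce1m, Spink5, Flg2, Calm4, Klk7, Lce1a1 and 2310050C09Rik, with log2 differences from 6.83 to 7.85. Krtdap and Dmkn encode secreted proteins of maturing keratinocytes, Flg2 a filaggrin-type protein of the cornified layer, Klk7 a protease that sheds that layer, and Spink5 its inhibitor. Chromosome 3 held 5 of the 12 (Lor, Lce1m, Flg2, Lce1a1 and 2310050C09Rik), between 92080271 and 93221391 (GRCm38), the cluster of barrier genes known as the epidermal differentiation complex. Of 31 tested genes lying wholly in that stretch, 24 were called higher and 0 lower (5.10% and 1.43% over all genes tested). Their median difference was 4.53, against -0.07 over all genes tested. The stretch was chosen after the values were seen, and its bounds were set by the 5 genes, which are counted among the 31. The filter could also let a gene pass through the high-score mice alone, so this count and median are a description only.

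The promoters of 5 genes are shown, Krt10 and Lor as genes with large differences, Krt5 as a ranking keratin, and Krt8 and Krt18 as the luminal keratin pair. Each runs 250 bases before to 50 after the start of transcription (RefSeq, GRCm38.p6, 5′ to 3′). Capitals mark TATAAA, the TATA box, or GCCNNNGGC, a form of the AP-2 motif, on either strand.
Krt10 promoter, chr11:99389315-99389614, minus strand: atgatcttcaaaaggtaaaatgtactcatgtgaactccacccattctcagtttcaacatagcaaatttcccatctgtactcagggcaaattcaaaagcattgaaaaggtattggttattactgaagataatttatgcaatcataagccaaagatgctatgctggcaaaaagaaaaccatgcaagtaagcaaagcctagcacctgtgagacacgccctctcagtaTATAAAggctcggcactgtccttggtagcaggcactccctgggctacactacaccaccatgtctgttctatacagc
Lor promoter, chr3:92083093-92083392, minus strand: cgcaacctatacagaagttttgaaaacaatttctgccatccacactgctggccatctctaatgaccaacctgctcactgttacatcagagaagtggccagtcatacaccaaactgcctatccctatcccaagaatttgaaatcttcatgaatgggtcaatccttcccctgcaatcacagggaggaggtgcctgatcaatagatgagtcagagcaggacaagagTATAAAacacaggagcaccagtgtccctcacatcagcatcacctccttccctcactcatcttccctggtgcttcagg
Krt5 promoter, chr15:101712856-101713155, minus strand: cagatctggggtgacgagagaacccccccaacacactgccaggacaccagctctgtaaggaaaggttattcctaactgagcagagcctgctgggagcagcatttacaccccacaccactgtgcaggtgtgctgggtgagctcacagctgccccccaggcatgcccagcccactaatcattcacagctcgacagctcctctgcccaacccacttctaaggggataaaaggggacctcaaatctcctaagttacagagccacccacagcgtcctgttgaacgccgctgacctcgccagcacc
Krt8 promoter, chr15:102004293-102004592, minus strand: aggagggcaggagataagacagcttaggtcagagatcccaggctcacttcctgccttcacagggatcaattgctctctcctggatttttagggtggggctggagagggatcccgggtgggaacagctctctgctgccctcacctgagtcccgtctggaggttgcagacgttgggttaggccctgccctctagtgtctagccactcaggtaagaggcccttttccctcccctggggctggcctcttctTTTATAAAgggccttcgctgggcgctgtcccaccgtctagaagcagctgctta
Krt18 promoter, chr15:102027966-102028265, plus strand: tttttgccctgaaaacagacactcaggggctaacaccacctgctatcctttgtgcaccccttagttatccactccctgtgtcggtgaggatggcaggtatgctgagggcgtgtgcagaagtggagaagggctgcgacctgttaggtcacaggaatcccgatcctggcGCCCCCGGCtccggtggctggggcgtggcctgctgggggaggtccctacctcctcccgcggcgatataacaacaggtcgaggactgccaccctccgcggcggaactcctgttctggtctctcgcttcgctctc
TATAAA lies in the windows of Krt10, Lor and Krt8, and in Krt8 its matches on both strands overlap, so the motif is shared by genes that went in opposite directions. Over 557 genes called higher that had a window, 10.6% held TATAAA on either strand, as did 10.8% of 167 windows of genes called lower, against 7.84% of 10988 tested genes. GCCNNNGGC was in 23.7% and 25.0% of them, and AACCGGTT, a Grainyhead-like motif, in 0.359% and 0.255%. These are counts of letters and not of bound sites.

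Of 24 genes listed for epidermis and hair, 21 passed the filter. Of these, 16 were higher and 0 lower in the high-score mice (5.10% and 1.43% over all genes tested), with a median difference of 5.63. The filter could let a gene pass through the high-score mice alone, and 10 of the 24 were at the floor in all 6 low-score mice, so this count and median are a description only. Of the 14 tested members above the floor in at least 1 low-score mouse, 12 were higher, with a median difference of 6.75, against -0.09 over the 14663 genes of that kind. Summed over the list, the high-score mice had 3880 to 14019 CPM, the low-score mice 25.7 to 56.1 CPM and the other 10 mice 23.5 to 4240 CPM. Flg, which encodes filaggrin, had 36.4, 135 and 253 CPM in the high-score mice and was at the floor in every low-score mouse. Ivl (involucrin), Dsg1a (desmoglein 1) and Dsc1 (desmocollin 1, which pairs with it in epidermal desmosomes) were likewise at the floor in all low-score mice, with medians of 31.9, 103 and 34.8 CPM in the high-score mice.

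Genes of the hair shaft and its root sheath varied among the high-score mice themselves. Krt71, a keratin of the inner root sheath, stood at 697 CPM in control mouse 4 with PBS and at 1 to 15.1 CPM in the other 5 high-score mice. Krt25 was at 1316 CPM in that mouse and at most 13.1 CPM in the others, and Tchh (trichohyalin) at 1593 CPM and at most 16.7 CPM. The differences between the groups were not called for Krt71 (2.21, SE 1.11, adjusted p = 0.280), Krt25 (2.94, SE 1.12, adjusted p = 0.149) or Tchh (3.17, SE 1.06, adjusted p = 0.099). Krt75, of the same list, was called (2.83, SE 0.54, adjusted p = 0.0039), with 3.4 to 97.6 CPM against at most 1.7 CPM. The keratin Krt32 was called as well (2.01, SE 0.55, adjusted p = 0.039), with all 6 low-score mice at the floor. Both were highest in control mouse 4 with PBS, at 97.6 and 53.4 CPM. The same mouse had the lowest Krt10 of the 6, so hair and upper epidermal genes did not share an order within the group.

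Keratins went in both directions. Beside the ranking pair, 52 keratin genes were listed and 26 were tested. Of these, 12 were higher, 1 was lower and 13 were not called (5.10% higher and 1.43% lower over all genes tested). Their median difference was 2.52. The filter could let a keratin pass through the high-score mice alone. Some tested keratins were at the floor in all 6 low-score mice, among them Krt78 and Krt32, both called higher. The keratin counts and median are therefore a description only. On chromosome 11, 6 of 12 tested keratins were higher, and on chromosome 15, 6 of 14 were higher and 1 was lower, with Krt18 among the 14. Krt15, a keratin of basal layers and the hair bulge, had 607, 926 and 1151 CPM against 2.6, 6.7 and 18.6 CPM (log2 difference 6.79, SE 0.32). Krt17, of hair follicles and injured epidermis, had 110, 339 and 577 CPM against 6.4, 14.0 and 21.6 CPM (4.51, SE 0.37). Krt6a and Krt16, induced in wounded epidermis, were uneven, from 26.9 to 1260 CPM and from 1.9 to 520 CPM in the high-score mice, against at most 2.1 and 1.1 CPM in the low-score mice, and Krt16 kept its call in 6 of 12 fits without a single mouse. Krt8, the luminal type II keratin, was the 1 keratin called lower, at 8.9, 15.4 and 24.3 CPM in the high-score mice against 23.2, 33.3 and 51.8 CPM in the low-score mice (-1.12, SE 0.23, adjusted p = 0.0064).

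**Figure D3:**
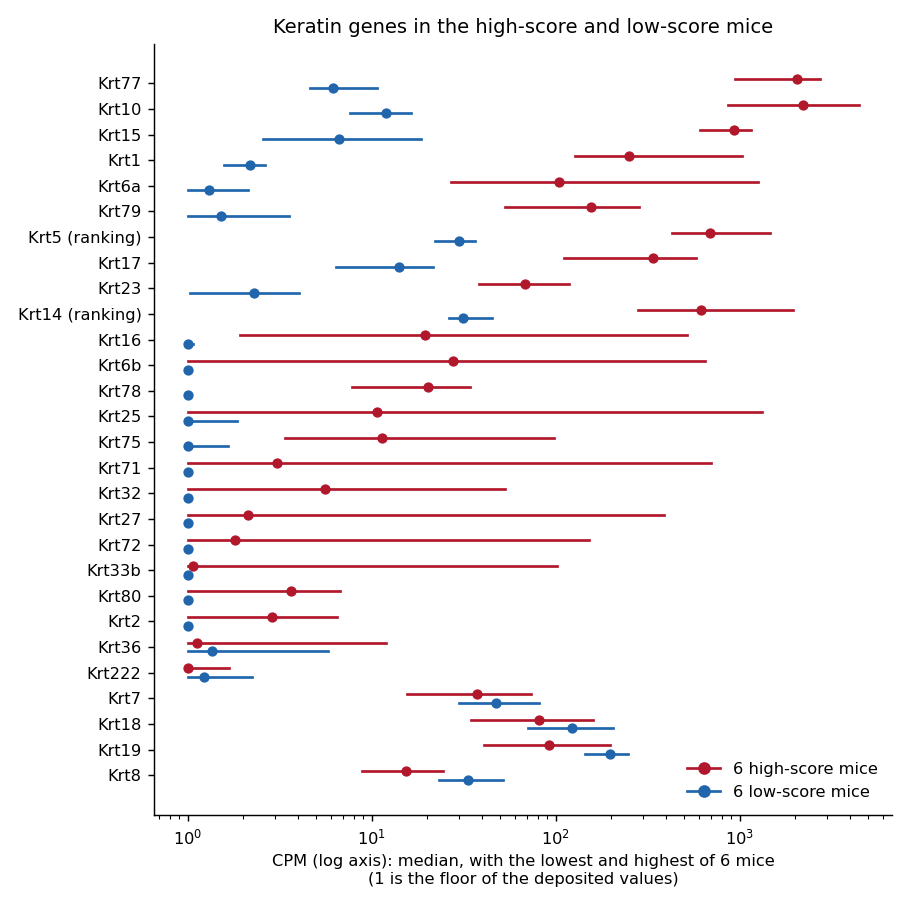
Keratin genes that passed the filter, ordered by their difference, with the median (point) and the lowest to highest CPM (line) of the 6 high-score and the 6 low-score mice on a log axis, where 1 CPM is the floor. Krt77, Krt10, Krt15 and Krt1 lie apart by over 6 on the log2 scale, while Krt7, Krt18, Krt19 and Krt8 at the bottom have lower medians in the high-score mice.

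Luminal genes went in both directions, with most not called and a median below 0. Of 24 luminal genes 23 were tested, and 4 were higher, 1 was lower and 18 were not called, with a median difference of -0.51. Both counts were larger shares than over all genes tested, where 5.10% were higher and 1.43% lower. Krt18, the type I partner of Krt8, had 34.9, 81.6 and 161 CPM in the high-score mice and 70.6, 123 and 206 CPM in the low-score mice, ranges that overlapped (-0.68, SE 0.33, adjusted p = 0.268). Krt19 had 41.0, 92.0 and 196 CPM against 144, 197 and 246 CPM (-0.96, SE 0.32, adjusted p = 0.096), and Krt7 differed by -0.56 (SE 0.35, adjusted p = 0.392). Cldn3, a tight junction protein of luminal cells, Wfdc18, a secreted protein of the gland, and Kit, of luminal progenitors, differed by -0.71, -1.28 and -0.67 and did not pass the test. The members called higher were Anxa8 (5.50, SE 0.38), an annexin, Rab25 (2.48, SE 0.27), an epithelial trafficking GTPase, Tmem184a (1.37, SE 0.28) and St14 (0.99, SE 0.24), the protease matriptase, which the epidermis also uses. Summed over the list, the high-score mice had 863 to 1765 CPM and the low-score mice 870 to 1877 CPM, so the groups overlapped almost wholly.

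The lists of hormone-sensing, milk and contractile genes of the gland also had medians below 0. Of 13 tested hormone-sensing genes, 1 was higher and 0 lower (5.10% and 1.43% over all genes tested), with a median difference of -0.46. That gene was Gata3, a transcription factor of luminal cells and of epidermis, at 172, 207 and 229 CPM against 75.4, 97.3 and 163 CPM (0.99, SE 0.17, adjusted p = 0.0018). The estrogen receptor gene Esr1 had 20.9, 39.9 and 70.2 CPM against 41.1, 46.9 and 60.5 CPM (-0.20, SE 0.23), and the prolactin receptor gene Prlr differed by -0.47 (SE 0.33). Of 14 milk genes 5 passed the filter. Mfge8, the milk fat globule protein, was lower, at 144, 227 and 299 CPM against 255, 388 and 531 CPM (-0.79, SE 0.21, adjusted p = 0.032), but it kept that call in only 4 of 12 fits without a single mouse. The casein gene Csn3 (-0.67, SE 0.35) and Btn1a1 (-1.28, SE 0.38, adjusted p = 0.060) did not pass, and Csn2 and Wap were at the floor in all 22 mice. Of 10 contractile genes of basal cells and smooth muscle, 0 were called (6.53% over all genes tested), with a median difference of -0.25. Acta2 had 66.5, 123 and 201 CPM against 97, 167 and 172 CPM.

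Most basal genes were higher in the high-score mice, many of them known from the epidermis as well. All 20 genes of the basal list were tested, and 15 were higher and 0 lower (5.10% and 1.43% over all genes tested). Their median difference was 1.75. Of the 19 above the floor in at least 1 low-score mouse, 14 were higher. Col17a1, the collagen of hemidesmosomes, had 75.6, 107 and 208 CPM against 3.0, 6.6 and 9.1 CPM (4.03, SE 0.27), and Itgb4, the integrin of the same structures, differed by 1.76 (SE 0.24). Trp63, the master transcription factor of basal and stratified epithelium, had 14.1, 31.9 and 37.6 CPM against 1, 2.7 and 6.0 CPM (2.97, SE 0.32, adjusted p = 1.5e-05). Lgals7, a galectin of stratified epithelia, differed by 5.49 (SE 0.37) and Sfn, a 14-3-3 protein of keratinocytes, by 3.67 (SE 0.40). The basal genes that were not called included Oxtr, the oxytocin receptor that drives milk ejection, at 4.0, 23.5 and 48.1 CPM against 23.0, 46.4 and 73.4 CPM (-1.07, SE 0.48, adjusted p = 0.221).

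Junction genes were higher or not called. Of 23 tested, 13 were higher and 0 lower (5.10% and 1.43% over all genes tested), with a median difference of 1.57. Dsp (desmoplakin), which ties desmosomes to keratin filaments, had 368, 755 and 1066 CPM against 19.2, 26.1 and 36.9 CPM (4.71, SE 0.24, adjusted p = 1.6e-09). Perp, Pkp1 and Ppl, also desmosomal or envelope proteins, differed by 4.86, 4.34 and 3.78. Cldn1, the claudin of the epidermal barrier, had 29.4, 62.4 and 92.9 CPM against 1, 1.9 and 6.7 CPM (4.15, SE 0.38). Dsg2, the desmoglein of simple epithelia, differed by 0.43 (SE 0.22), the desmosomal genes Pkp2 and Dsc2 by -0.31 (SE 0.37) and 0.23 (SE 0.39), and F11r, an adhesion molecule of tight junctions, by 0.17 (SE 0.25), and none of these passed.

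Among transcription and splicing factors of epithelium, 11 of 21 were higher and 0 lower (5.10% and 1.43% over all genes tested). Their median difference was 1.20. Ovol1, a factor of epidermal differentiation, had 10.2, 23.5 and 47.2 CPM against 1, 1 and 1.7 CPM (3.43, SE 0.34). Klf5 (2.69, SE 0.26), Grhl1 (2.48, SE 0.24) and the splicing regulator Esrp1 (2.36, SE 0.23) were called as well. The mammary factors Elf5, of luminal progenitors, and Sox10 differed by -0.21 (SE 0.31, adjusted p = 0.756) and -0.68 (SE 0.30, adjusted p = 0.211). Of 18 signalling genes 9 were higher and 0 lower, beside the same shares over all genes tested. Fgfbp1, a carrier of fibroblast growth factors, stood at 5.3 to 19.9 CPM in the high-score mice and at the floor in every low-score mouse.

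**Figure D4:**
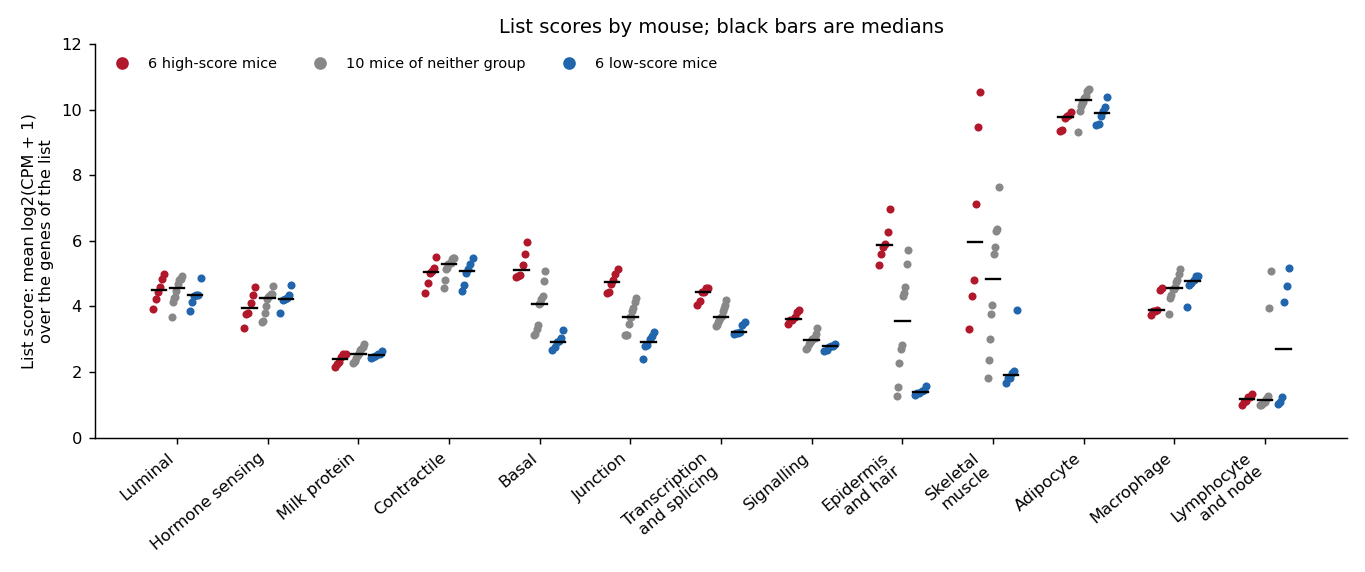
List scores, the mean log2(CPM + 1) over all genes of a list, for each mouse in the high-score group, in neither group and in the low-score group, with black bars for medians. Basal, junction, transcription and splicing, signalling, and epidermis and hair scores lie apart between the ends, luminal and contractile scores overlap, and skeletal muscle scores of the high-score mice reach from 3.30 to 10.54.

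Genes of other tissues also moved with the score. Of 14 skeletal muscle genes 10 were higher and 0 lower, with a median difference of 4.81, against 5.10% higher over all genes tested. The ranges of the groups were apart for 2 of the 14, against 3.61% over all genes tested. Ckm, the muscle creatine kinase, had 9.3, 147 and 3264 CPM against 1.4, 2.3 and 11.6 CPM (5.38, SE 1.12, adjusted p = 0.0070). Summed over the list, the high-score mice ran from 171 to 31816 CPM and the low-score mice from 36.8 to 296 CPM. Control mouse 4 with PBS, with the highest epidermis and hair score of all mice (6.97), had the lowest muscle score of the high-score mice (3.30). Adipocyte genes (15 tested, median -0.18), endothelial genes (12, median -0.20), fibroblast genes (12, median 0.04), macrophage genes (15, median -0.57) and proliferation genes (16, median -0.31) each had 0 called. Over all genes tested 6.53% were called, so 0 of 12 to 16 genes is near that share. The part of tissue other than mammary gland in these differences was not tested.

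Genes lower in the high-score mice included some of immune cells, and lymphocyte markers varied widely among the low-score mice. The 12 largest among those called and not overlapping were Irf8, Limd2, Map4k1, Samd9l, Cnp, Aif1, Fyb, Sipa1, Mthfd2, St8sia4, Slfn8 and Ddx58. Irf8, a transcription factor of B cells and myeloid cells, had 2.2, 9.6 and 11.5 CPM against 13.3, 68.9 and 233 CPM (-2.76, SE 0.60, adjusted p = 0.0096). Of 13 tested lymphocyte and lymph node genes 0 were called (6.53% over all genes tested), with a median difference of -1.95. Their sum was 0 to 17.3 CPM in the high-score and 1.9 to 935 CPM in the low-score mice. A lymphocyte and node score over 3 was found in 3 low-score mice (wheel-running mouse 3 with PBS and wheel-running mice 4 and 5 with clodronate), 2 mice of neither group and 0 high-score mice. The part of lymph node tissue in the lower genes was not tested. Without those mice, which leaves 3 low-score mice, 419 genes were called, 390 higher and 29 lower, and the difference of Irf8 was -1.44 (adjusted p = 0.228). None of the 12 passed then, with adjusted p from 0.070 to 0.404. Samd9l (-1.81, from -2.04 with all 12 mice), Aif1 (-1.65, from -1.75), Mthfd2 (-1.54, from -1.68) and Ddx58 (-1.73, from -1.60) kept about their size and missed the threshold with 3 low-score mice, while Irf8, Limd2 (-0.99, from -2.33) and Map4k1 (-0.83, from -2.05) became smaller. In the same fit Krt10 (7.72, adjusted p = 2.3e-05), Dsp (4.79, adjusted p = 2.8e-05) and Krt8 (-1.31, adjusted p = 0.046) passed. Gata3 (0.91, adjusted p = 0.066), Mfge8 (-0.50, adjusted p = 0.397), Tmem184a (1.25, adjusted p = 0.109) and the muscle genes Acta1 (5.87, adjusted p = 0.080) and Myh1 (4.98, adjusted p = 0.072) kept their direction and missed the threshold.

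The 10 mice of neither group were not used by the contrast, and the slope of each gene on the score was fitted in them. That score is the one that ranked all the mice. Genes that go along with the ranking genes can therefore share a direction in both fits. The slopes describe what went along with the score in other mice and are not independent of the ranking. limma called 164 slopes (1.08% of 15134 genes), 163 rising (1.08%) and 1 falling (0.00661%, Hoga1), and 50.1% of all slopes were positive. Of the 772 genes higher in the high-score mice, 706 (91.5%) had a positive slope in the other mice, and 161 passed the test. Of the 217 genes lower, 131 (60.4%) had a negative slope and 0 passed. The same direction was found for 54.9% of the genes not called at the ends, near the share of the lower genes. That share moved with the mice used, from 42.9% to 76.5% when 1 of the 10 was left out, and it was 79.3% (57.7% of genes not called) without the mice of a high lymphocyte and node score. All 13 tested lymphocyte and node genes had a positive slope (median 0.42), opposite in sign to their median of -1.95 at the ends, and 0 of these slopes passed the test. The 10 smallest p belonged to Pkp1, Krt17, Dsp, Serpinb5, Trim29, Pof1b, Perp, Anxa8, Col17a1 and Pou3f1. Pkp1 (plakophilin 1), a desmosome plaque protein, rose by 2.15 (SE 0.19) on the log2 scale per unit of score (adjusted p = 0.0015).

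By list, slopes were called for 11 of 21 epidermis and hair genes, 7 of 23 junction genes and 6 of 20 basal genes. They were also called for 3 of 21 transcription and splicing factors and 1 of 23 luminal genes (Anxa8). All of these were rising, and over all genes tested 1.08% of slopes were called. Slopes were positive for all 21 tested epidermis and hair genes but for 7 of 23 luminal genes, 3 of 13 hormone-sensing genes and 0 of 5 milk genes. Over all genes tested 50.1% were positive. All 14 muscle genes had positive slopes, none past the threshold. The number of calls rested on single mice. It was 1 without wheel-running mouse 2 with PBS, 6 without wheel-running mouse 1 with PBS, 9 without control mouse 3 with PBS, 55 without wheel-running mouse 6 with PBS, 102 without control mouse 2 with PBS and 112 to 164 without any other of the 10. The share of genes higher at the ends with a positive slope stayed between 86.0% and 93.0%.

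**Figure D5:**
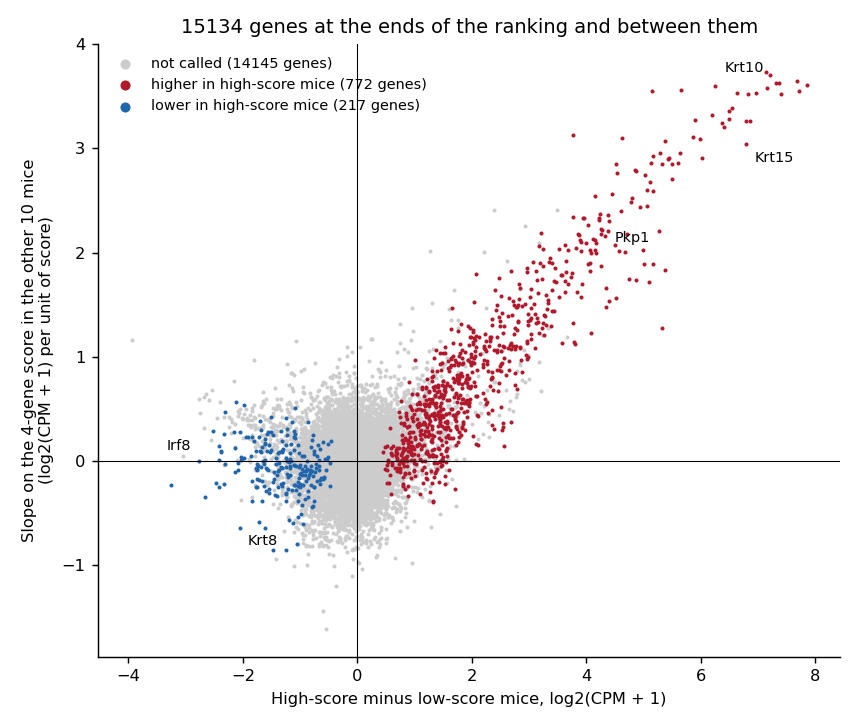
Difference between the high-score and low-score mice (horizontal axis, log2(CPM + 1)) against the slope on the 4-gene score in the other 10 mice (vertical axis, log2(CPM + 1) per unit of score), 1 point per gene. The 772 genes higher in the high-score mice lie mostly above 0 on the vertical axis (706 of them), while the 217 lower genes lie on both sides of 0.

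Over all 22 mice, the genes whose log2 values were most like the score, beside the ranking genes, included Dsp (Pearson r = 0.98), and Trim29, Pkp1, Grhl1, Krt17, Emp2, Evpl and Serpinb5 (r = 0.97 for each). Dsp, Pkp1 and Evpl encode desmosome or envelope proteins, and Serpinb5 the serpin maspin. All of these were also called at the ends, in the same libraries. The luminal list score had r = 0.10 with the 4-gene score and the epidermis and hair score r = 0.94, with the 22 libraries as points and no test.

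Which genes chose the mice mattered. Ranked by Krt5 and Krt14 alone, 5 of the 6 high-score and all 6 low-score mice stayed, and 1036 genes were called, 841 higher and 195 lower. Ranked by Epcam and Cdh1 alone, 5 and 4 stayed, and 318 genes were called, 124 higher and 194 lower. The difference of Krt10 was then 3.97 (adjusted p = 0.180) and that of Krt8 -0.49 (adjusted p = 0.586), and the median difference of the luminal list changed sign to 0.23. Ranked without Krt5, 1235 genes were called, 757 higher and 478 lower, with 1 low-score mouse exchanged.

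Few genes were called in the comparisons of the study's labels. limma called 0 of 15138 genes (0.00%) between wheel-running and control mice, with 1224 at an unadjusted p under 0.05 and the smallest adjusted p at 0.337, and 31 (0.205%) between clodronate and PBS. Of those 31, 0 were among the 989 genes called at the ends, which were 6.53% of genes tested. In the other 10 mice, 0 of the 31 were among the 164 slopes called (1.08%). At these shares few of 31 genes would be shared in any case, so the counts do not set the ranking apart from the labels. Of 154 tested genes in the 9 epithelial lists, 0 were called in either comparison, near the shares over all genes. The interaction of activity and liposome had 0 genes called (0.00%) and 1147 at an unadjusted p under 0.05. Krt14 differed by -0.99 (SE 0.74, adjusted p = 0.749) with the wheel and by 0.72 (SE 0.74, adjusted p = 0.769) with clodronate. Krt10 differed by -0.93 (SE 1.31, adjusted p = 0.877) and 1.38 (SE 1.31, adjusted p = 0.746). Krt8 differed by 0.19 (SE 0.27) and -0.23 (SE 0.27). With activity and liposome as terms in the contrast of the ends, 869 genes were called, 826 of them among the 989.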

How the data were processed

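RNA of mammary tissue from 22 mice was read with QuantSeq, which counts the 3′ ends of transcripts, so levels do not scale with transcript length. The submitters' processing notes name STAR 2.5.3a and the GRCm38 build. The counting tool and annotation are not given in the sources used here. The values the authors deposited are a gene signal in CPM of all reads, unmapped and multimapped ones included, and anything below 1 stands as 1. Values above 1 were whole multiples of 1 read, which gave depths of 13256467 to 20484578 reads. Values at the floor hide reads, so count tests were not used. Multimapped reads (16.6% to 19.9%) reached no gene.

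Groups came from the labels, and all mice belong to 1 experiment there. The 4-gene ranking, the gene lists and the members were chosen with earlier results of these data known. Genes that exceeded the floor in 5 or more mice entered limma 3.58.1 under R 4.3.3 on log2(CPM + 1), with eBayes, a trend and Benjamini-Hochberg adjustment over all of them. Label contrasts used 4 group means over 22 mice. Single measures were compared by exact permutation. Summary rows of the files were left out of tests. Named were the ranking genes, members of the lists, the 12 largest differences each way among genes called and not overlapping, the 10 smallest p among the other 10 mice and the 10 genes most like the score, and some genes that this rule names are not reported here. The stretch of chromosome 3 and Hoga1 were chosen after values were seen. Positions are from GENCODE M21. Matching of the last 400 bases at 97% identity found copies for Sbsn, Myl1, Mzb1 and globin genes, whose values are uncertain. In libraries simulated for the contrast of the ends, 200 of 15119 genes were changed by 1.5 on the log2 scale, and 75.5% were recovered with 6 false calls. For the slopes, 71% of 200 among 15060 genes were recovered with 7 false calls. The mice of this report were ranked by measured values of the same libraries. The share of false calls under such a ranking was not tested. Alternatives were other pseudocounts, filters, scalings, rankings and group sizes, a block on the replicate number, and fits without single mice. Python 3.11.15 was used for tables and plots.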

Additional observations from a re-analysis of the deposited data

Results flagged for a closer look

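In the groups of 6 high-score and 6 low-score mice, and for the 4-gene score also in the label groups, 60 groups of values were searched for a mouse far from the rest of its group, and 4 were found, where chance gives about 3. Wheel-running mouse 3 with PBS had a skeletal muscle score of 3.89, above the next low-score mouse at 2.04. Control mouse 1 with clodronate had a macrophage score of 3.98, under the next low-score mouse at 4.64, and a median level over tested genes of 3.18, under the next at 3.36. Wheel-running mouse 1 with clodronate had a pericyte score of 4.06, under the next high-score mouse at 4.50. All scores are means of log2(CPM + 1).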

How the results depend on the processing

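The 989 genes called between the ends became 590 with the replicate block (522 higher and 68 lower), 419 without mice of a high lymphocyte and node score and 318 when ranked by Epcam and Cdh1, and 714 to 1111 when leaving out each mouse. The other alternatives gave 758 to 1335. The 164 slopes called in the other 10 mice became 39 with no filter, 0 with the replicate block, 15 without the mice of a high lymphocyte and node score, 83 with activity and liposome as terms and 1 to 164 when leaving out each mouse. With the block, 89.4% of the genes higher at the ends had a positive slope and 84.8% of the lower genes a negative one (same direction for 58.7% of genes not called). The replicate numbers did not pair the mice. Deviations of mice with the same number had a mean correlation of -0.08 with PBS (0 of 6 controls correlated best with their own number) and 0.18 with clodronate (2 of 5). Wheel against control gave 0 in each alternative but no filter (2). Clodronate against PBS, 31 genes, gave 54 when a mean of 5 CPM or more was asked, 12 with upper-quartile scaling, 15 scaled to reads in genes, 20 with no variance trend, 11 with the block, 0 without the mice of a high lymphocyte and node score, and 9 to 146 when leaving out each mouse (146 without control mouse 1 with clodronate and 9 without control mouse 3 with clodronate). The cause of these shifts was not tested.

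List medians kept their sign except as follows, and except for brown fat, fibroblast, pericyte and proliferation genes, which changed sign in 1 or more alternatives. Ranked by Epcam and Cdh1, the median was 0.23 for luminal and 0.091 for hormone-sensing genes. Without the mice of a high lymphocyte and node score, an alternative chosen after seeing the data, it was 0 for lymphocyte and node genes and 0.075 for plasma cell genes, whose median was -1.82. With a pseudocount of 5, medians were 1.23 (basal), 0.70 (transcription and splicing), 0.56 (signalling), 4.34 (epidermis and hair) and 0.23 (neutrophil), and with 0.1 they were 6.48 (epidermis and hair) and 0.70 (neutrophil, 0.50 as reported). With 11 against 11 mice they were 1.26 (basal), 0.86 (junction), 0.63 (transcription and splicing), 0.36 (signalling), 4.63 (epidermis and hair), -0.43 (lymphocyte and node) and -0.22 (plasma cell). Ranked by Epcam and Cdh1 they were 1.20 (basal), -0.045 (milk), 0.82 (transcription and splicing), 3.37 (epidermis and hair), 2.25 (muscle) and 0.19 (neutrophil). The milk median was -0.86 with 5 against 5 mice, -0.84 when ranked without Epcam or by Krt5 and Krt14, and -0.88 to -0.42 when leaving out each mouse. Leaving out each mouse gave 0.25 to 0.57 for neutrophil genes. Differences of genes near the floor depend on the pseudocount, and changes below 1 CPM cannot be seen in the deposited values.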

Other observations

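Some gene families outside the lists followed the score, and they were counted after the values were seen. The filter could let a gene pass through the high-score mice alone, so the counts and medians below are a description only. Over all genes tested 5.10% were higher and 1.43% lower. Of 18 tested Lce genes, which encode late cornified envelope proteins, 16 were higher in the high-score mice and 0 lower, with a median difference of 4.20. Of 8 tested kallikrein genes (Klk), secreted proteases several of which act in the skin, 6 were higher, with a median of 2.59. Of 7 tested desmosomal cadherins 5 were higher (median 2.04), and of 7 tested connexins 4 (median 2.76). Of 14 tested claudins 2 were higher and 0 lower, with a median of -0.11. Of 12 tested hair keratin-associated genes (Krtap) 1 was higher, with a median of 1.17.

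Of the remaining lists, brown fat (7 tested, 1 higher, median 0.12) and nerve genes (8 tested, 1 lower, median -0.15) had 1 call each. Plasma cell (5 tested), neutrophil (4), pericyte (7, median -0.17) and red cell genes (5, median -0.36) had 0. Over all genes tested 6.53% were called, so counts of 0 or 1 in lists this short say little.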
